A study of Equus caballus with 10 samples.

Results

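The Toll-like receptors TLR1 to TLR9 and the co-receptor CD14 were examined in equine tenocytes that received IL-1β in the presence of an inhibitor of the kinase IRAK-4. These 10 genes were chosen by gene symbol, and all 10 were found among the 29196 genes of the table. Primary tenocytes, the resident fibroblast-like cells of tendon, came from the superficial digital flexor tendon of 5 Thoroughbred or Thoroughbred-type horses and were passaged before use. They were cultured in 3D gels of bovine type I collagen for 14 days. One group, PF-06650833 alone, received the IRAK-4 inhibitor PF-06650833 daily at 100 nM, and the other, IL-1β plus PF-06650833, received the same inhibitor and IL-1β at 17 ng/ml every 3 to 4 days. Each of the 5 donors gave 1 library to each group, 10 libraries in all. Both groups carried the inhibitor, so the comparison is of IL-1β against no IL-1β under IRAK-4 inhibition, and libraries without the inhibitor were not analysed here.

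Toll-like receptors are membrane proteins that detect parts of microbes and molecules released from damaged tissue. TLR1, TLR2, TLR4, TLR5 and TLR6 act mainly at the cell surface, on lipopeptides, lipopolysaccharide and flagellin, whereas TLR3, TLR7, TLR8 and TLR9 detect nucleic acids in endosomes. They share a cytoplasmic domain with the receptor of IL-1β. Most of them, like that receptor, recruit the adaptor MyD88, which brings in IRAK-4, the target of PF-06650833. TLR3 instead signals through the adaptor TRIF, and TLR4 can use both adaptors. In tendon these receptors are of interest because matrix fragments and proteins set free by injury can act on TLR2 and TLR4.

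The deposited values are log2 expression after variance stabilization, a scale on which 0 reads has the value 3.43. Normalized counts were recovered from them by inverting the transformation, and 1 read was worth between 1.05 and 1.42 normalized counts, depending on the library. The libraries held an estimated 26590893 to 35886424 reads under PF-06650833 alone and 26811426 to 33582823 under IL-1β plus PF-06650833. Tenocyte markers differed widely in level. COL1A1 was at a normalized count of at least 102010 in every library, and THBS4 was between 3.42 and 556. SCX and MKX were detected in all 10, SCX at 97.6 to 343 under IL-1β plus PF-06650833, although TNMD was listed at 0 in all 10. Of 8 tested tenocyte markers, 3 were differentially expressed, SCX, MKX and COMP, all lower with IL-1β, beside 6.68% of all tested genes. With the donor as a replicate block 5 were, all lower, beside 8.26% of all tested genes. COL1A1 (log2 fold change -1.38, adjusted p = 0.0147 from limma) and COL1A2 (-1.28, adjusted p = 0.0169) were added. DCN went the other way, higher in 5 of 5 donors but not differentially expressed (log2 fold change 1.01, adjusted p = 0.268 from limma). Of 10 markers of monocytes and macrophages, AIF1 and TYROBP were listed at 0 in all 10 libraries, CSF1R and PTPRC in 9 and SPI1 in 8. The summed normalized count of that list was nevertheless between 65.3 and 122 under PF-06650833 alone and between 173 and 764 under IL-1β plus PF-06650833. CD68, a lysosomal protein that fibroblasts also express, made up most of it and was differentially expressed (log2 fold change 1.70, adjusted p = 0.00795 from limma). Of 5 lymphocyte markers, 4 were listed at 0 in all libraries, and the list reached at most 2.36 normalized counts in sum. The 6 endothelial markers summed to between 5.12 and 50.4 normalized counts. Of 4 dendritic cell markers, CLEC9A was listed at 0 in all libraries, TCF4 made up most of the sum, and IRF8 was differentially expressed (log2 fold change 1.99, adjusted p = 0.00954 from limma). The part of these markers in the results for the receptors was not tested.

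None of the 8 receptors that could be tested met the thresholds for differential expression. A gene was tested when it was above 3.43 in at least 5 of the 10 libraries, which left out TLR7 and TLR8. Differential expression required an adjusted p below 0.05 in limma across 17992 genes together with a log2 fold change of 1 or more in either direction. By this rule 0 of the 8 members were differentially expressed, where 6.68% of all tested genes were, and 1 member, TLR9, had an unadjusted p below 0.05. The number was also 0 with the donor as a replicate block, where 8.26% of all genes were differentially expressed and 4 members had an unadjusted p below 0.05. The block with no minimum fold change was a setting chosen after the data were seen. With it, 2 of the 8, TLR4 and TLR9, had an adjusted p below 0.05, beside 22.2% of all genes. These were also the 2 members that were higher with IL-1β in all 5 donors, a pattern that 16.0% of all tested genes showed. No member had groups that did not overlap, against 12.7% of all tested genes. The 8 members had a median log2 fold change of 0.21, and all tested genes one of -0.01.

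**Figure D1:**
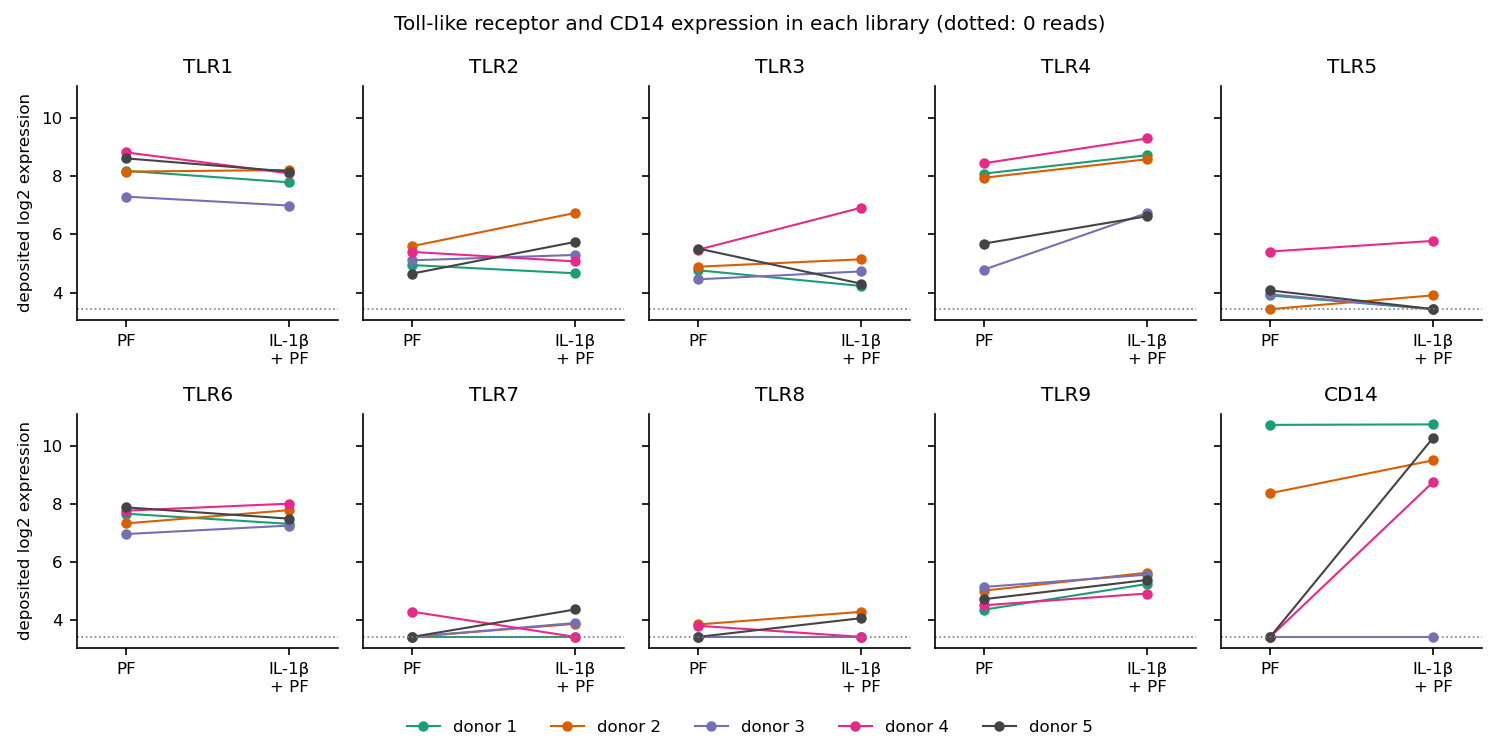
Deposited log2 expression of the 10 members, with 1 panel per gene, 1 point per library and 1 line per donor joining PF-06650833 alone (PF) to IL-1β plus PF-06650833 (IL-1β + PF); the dotted line at 3.43 is 0 reads. All 5 lines go up for TLR4 and for TLR9, TLR7 and TLR8 lie at or near 0 reads, and CD14 is at 0 reads in 4 libraries and above 8 in the other 6.

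TLR4, the receptor for lipopolysaccharide and for several matrix fragments, was higher with IL-1β in every donor, but it differed more between donors than between groups. Its log2 expression under PF-06650833 alone was 8.09, 7.95, 4.79, 8.45 and 5.69 in donors 1 to 5. With IL-1β plus PF-06650833 it was 8.72, 8.58, 6.74, 9.30 and 6.63. Donors 3 and 5 were low and donors 1, 2 and 4 high in both groups, so the groups overlapped although each donor moved upward. In normalized counts, IL-1β plus PF-06650833 was 1.59, 1.60, 8.36, 1.85 and 2.44 times PF-06650833 alone in donors 1 to 5. The ratio of donor 3 stands apart from the others, and it starts from 10.3 normalized counts.

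The group means of TLR4 were 6.99 ± 1.64 (SD, n = 5) and 7.99 ± 1.23 (SD, n = 5), a log2 fold change of 1.00, which before rounding was just under the minimum of 1. Without the block its standard error was 0.79, with a 95% confidence interval from -0.73 to 2.73 (adjusted p = 0.441 from limma). With the replicate block, which compares each donor with itself, the standard error was 0.22, the interval ran from 0.50 to 1.50 and the adjusted p was 0.0153 from limma. The block on the log2(normalized count + 1) scale was also chosen after the data were seen. In that setting TLR4 was differentially expressed (log2 fold change 1.29, adjusted p = 0.0325 from limma), as was TLR9, beside 10.1% of all genes. Leaving out each donor in turn from the blocked fit kept the adjusted p of TLR4 below 0.05 in 5 of 5 fits. The log2 fold change was 0.76 without donor 3 and at least 1.02 without any other donor, which put TLR4 past the minimum fold change in 4 of the 5 fits. In those 4 fits, between 1177 and 1578 of the 17992 tested genes were differentially expressed. In bulk RNA, more cells of a type and more RNA per cell cannot be told apart.

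LY96 encodes MD-2, the protein that holds lipopolysaccharide against TLR4. Its log2 expression was 9.23, 8.55, 8.84, 8.06 and 8.50 in donors 1 to 5 under PF-06650833 alone and 9.77, 9.57, 8.82, 9.05 and 9.85 under IL-1β plus PF-06650833. It was higher in 4 of 5 donors and about level in donor 3, the donor in which TLR4 differed most. The log2 fold change was 0.78 (standard error 0.25, adjusted p = 0.0616 from limma), and with the replicate block the adjusted p was 0.0261 from limma, under the minimum fold change in both fits.

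CD14, which hands lipopolysaccharide to MD-2 and TLR4 and is best known from monocytes, was either abundant or listed at 0. With PF-06650833 alone its log2 expression was 10.72 in donor 1 and 8.37 in donor 2, and it was listed at 0 in donors 3, 4 and 5. With IL-1β plus PF-06650833 it was 10.73, 9.50, 8.75 and 10.27 in donors 1, 2, 4 and 5, and it was again listed at 0 in donor 3. In the donors with reads in both groups, the normalized counts were 1662 and 1682 in donor 1 and 309 and 702 in donor 2, ratios of 1.01 and 2.27. In donors 4 and 5 they went from a listed 0 to 410 and 1216. The mean difference was 2.66 on the log2 scale, with a 95% confidence interval from -1.13 to 6.45 without the block (adjusted p = 0.340 from limma) and from 0.26 to 5.07 with the replicate block (adjusted p = 0.106). On the log2(normalized count + 1) scale the difference was 4.03, also without a call.

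Whether the listed zeros of CD14 stand for absent expression was not tested, and genes near it also had listed zeros. NDUFA2 and TMCO6 precede CD14 on the chromosome in the RefSeq annotation of another horse assembly, which was used here for gene order only. NDUFA2 encodes a subunit of mitochondrial complex I, which cells with mitochondria use, yet it was listed at 0 in all 5 libraries under PF-06650833 alone and in 3 of the 5 under IL-1β plus PF-06650833. It had values above 0 in donors 2 and 5 under IL-1β plus PF-06650833, at 4.82 and 5.71. TMCO6 was listed at 0 in all 10 libraries. Further along on each side, LOC111767793 was between 8.35 and 9.01 and WDR55 between 9.21 and 10.30 in all libraries, with no listed 0. In the whole table, 172 genes were listed at 0 in at least 1 library while another library had a normalized count of at least 100, and 35 of them, CD14 included, were listed at 0 in 4 or more libraries. How the reads of this neighbourhood were assigned to its transcripts was not tested.

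**Figure D2:**
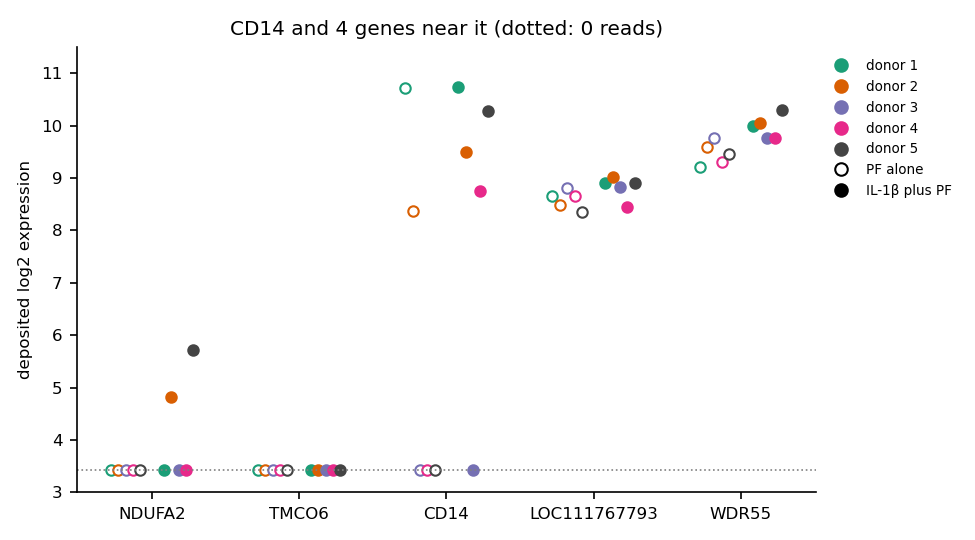
Deposited log2 expression of CD14 and of 4 genes near it, with open points for PF-06650833 alone (PF alone), filled points for IL-1β plus PF-06650833 (IL-1β plus PF) and colours for donors; the dotted line at 3.43 is 0 reads. TMCO6 lies on that line in all 10 libraries, NDUFA2 in 8 and CD14 in 4, whereas LOC111767793 and WDR55 lie above 8 throughout.

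TLR2 pairs with TLR1 or TLR6 to detect bacterial lipopeptides, and TLR1, TLR6 and TLR10 are similar genes that lie side by side, so reads can be shared between them and their separate values are less certain. None of the 4 met the thresholds for differential expression. TLR2 had log2 values of 4.95, 5.60, 5.11, 5.40 and 4.65 in donors 1 to 5 under PF-06650833 alone and of 4.66, 6.74, 5.30, 5.07 and 5.74 under IL-1β plus PF-06650833. The donors went in different directions: TLR2 was higher by 1.14 in donor 2 and by 1.09 in donor 5, and lower in donors 1 and 4. Its log2 fold change was 0.36 (95% confidence interval -0.43 to 1.15, adjusted p = 0.557 from limma), on 8.21 to 86.3 normalized counts per library. It was 0.05 without the library of donor 2 under IL-1β plus PF-06650833.

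TLR1 was lower in 4 of 5 donors when IL-1β was added to the inhibitor. Its log2 values were 8.18, 8.16, 7.30, 8.82 and 8.61 under PF-06650833 alone and 7.79, 8.21, 6.99, 8.10 and 8.16 under IL-1β plus PF-06650833. Donor 3 was the lowest of both groups. The log2 fold change of -0.36 had a 95% confidence interval from -1.05 to 0.33 (adjusted p = 0.487 from limma), and from -0.70 to -0.03 with the replicate block (adjusted p = 0.113).

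TLR6 was between 6.97 and 7.88 under PF-06650833 alone and between 7.26 and 8.01 under IL-1β plus PF-06650833, higher in 3 donors and lower in 2. Its log2 fold change was 0.05 with a 95% confidence interval from -0.44 to 0.54 (adjusted p = 0.912 from limma), so a change as large as the minimum fold change lies outside that interval. Without the block, the intervals of TLR1, TLR2, TLR4, TLR5, TLR9 and CD14 include such a change. That of TLR3 includes an increase of this size. With the replicate block, such a change lies outside the intervals of TLR1 (-0.70 to -0.03), TLR3 (-0.78 to 0.86), TLR5 (-0.68 to 0.36), TLR6 (-0.36 to 0.46) and TLR9 (0.22 to 0.98). The blocked intervals of TLR2, TLR4 and CD14 include it. With the block on the log2(normalized count + 1) scale, those of TLR3, TLR5 and TLR9 include it as well. TLR10, which was not among the 10 genes, had a log2 fold change of -0.19 (adjusted p = 0.755). Over the 10 libraries TLR1 correlated with TLR6 at r = 0.745 and with TLR10 at r = 0.809. The most alike genes were sought among tested genes outside the 10 members, leaving out those whose symbol begins with LOC. For TLR1 they were the ribosomal protein genes RPL4, RPS12 and RPL3 and the genes RBM3 and ACTR2. Their r was between 0.95 and 0.97 over 10 libraries, which share donors. For CD14 they were GNPTAB, ATP5ME, TMEM59, NDUFB1 and DPYD, with r between 0.88 and 0.92, while LY96 had r = 0.78. CD14 lay at the lowest value in some libraries and far above it in the rest. Its r values can therefore reflect which libraries those were, which was not tested.

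TLR5, the receptor for flagellin, had more than 3 normalized counts only in donor 4. There its log2 value was 5.41 under PF-06650833 alone and 5.78 under IL-1β plus PF-06650833, or 23.7 and 35.4 normalized counts. Among the other 8 libraries TLR5 was listed at 0 in 4 and was at most at 4.08, or 2.19 normalized counts. A difference between the groups was not detectable at this depth in donors 1, 2, 3 and 5. Over all donors the log2 fold change was -0.16 (95% confidence interval -1.24 to 0.92, adjusted p = 0.872 from limma).

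TLR9, the endosomal receptor for DNA with unmethylated CpG motifs, was higher in all 5 donors, on few reads. Its log2 values were 4.37, 5.02, 5.15, 4.52 and 4.73 in donors 1 to 5 under PF-06650833 alone and 5.25, 5.64, 5.57, 4.92 and 5.39 under IL-1β plus PF-06650833. The highest library without IL-1β, donor 3, lay above the lowest library with it, donor 4, so the groups overlapped. These values stand for 4.71 to 17.2 normalized counts under PF-06650833 alone and 12.6 to 30.5 under IL-1β plus PF-06650833, and the ratio within a donor lay between 1.65 and 4.15.

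The means of TLR9 were 4.76 ± 0.33 (SD, n = 5) and 5.35 ± 0.29 (SD, n = 5), which is 0.60 apart on the log2 scale (standard error 0.21, limma, adjusted p = 0.0862). With the replicate block the adjusted p was 0.0363 from limma. On the log2(normalized count + 1) scale with the block, chosen after the data were seen, the log2 fold change was 1.13 (adjusted p = 0.0402 from limma). In the 5 blocked fits of the deposited values that left out a donor, the log2 fold change stayed between 0.53 and 0.64 while the adjusted p was between 0.0527 and 0.125. Leaving out donors was not run on the log2(normalized count + 1) scale. TWF2 and ALAS1, the genes on either side of TLR9 in the gene order, were also higher in all 5 donors, with log2 fold changes of 0.47 and 0.59 (adjusted p = 0.0355 and 0.00443 from limma) and at least 1160 normalized counts per library. Their part in the TLR9 values was not tested.

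TLR3, the receptor for double-stranded RNA, went in opposite directions in different donors. Its log2 values were 4.77, 4.89, 4.46, 5.48 and 5.52 in donors 1 to 5 under PF-06650833 alone and 4.23, 5.15, 4.73, 6.92 and 4.31 under IL-1β plus PF-06650833. Donor 4 was higher by 1.44, from 25.5 to 100 normalized counts, and donor 5 was lower by 1.21, from 26.7 to 4.10. The other 3 donors stayed at or below 17.1 normalized counts. The log2 fold change was 0.04 (95% confidence interval -0.99 to 1.08, adjusted p = 0.963 from limma), and it was -0.42 without the library of donor 4 under IL-1β plus PF-06650833.

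TLR3 is induced by interferons in many cells, so the interferon-stimulated genes are given beside it. Of 16 tested, 6 were differentially expressed and all 6 were higher under IL-1β plus PF-06650833, beside 6.68% of all tested genes. With the replicate block 7 were, beside 8.26% of all tested genes. The median log2 fold change of the 16 was 0.86. The median difference of these 16 genes was 0.68, 0.72, 1.02, 2.25 and 0.37 in donors 1 to 5. It was largest in donor 4, where TLR3 was higher, and smallest in donor 5, where TLR3 was lower. At least 15 of the 16 genes were higher in each donor, including donors 1 and 5, in which TLR3 was lower. CXCL10, a chemokine induced by interferons, had the largest log2 fold change of the list (5.70, adjusted p = 0.00107 from limma).

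TLR7 and TLR8, neighbouring genes for receptors of single-stranded RNA, were at or near 0 in every library. TLR7 was listed at 0 in 4 libraries under PF-06650833 alone and in 2 under IL-1β plus PF-06650833, and its highest value was 4.77 normalized counts. TLR8 was listed at 0 in 3 libraries of each group, with a highest value of 3.97 normalized counts. The differences of the means were 0.20 for TLR7 and 0.14 for TLR8 on the log2 scale. Exact two-sided permutation tests of 5 libraries against 5 gave p = 0.405 and 0.563. These tests did not use the pairing by donor. The smallest p they can give without tied values is 0.00794, and here the libraries at 0 were tied. At these counts a difference could not be detected.

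**Figure D3:**
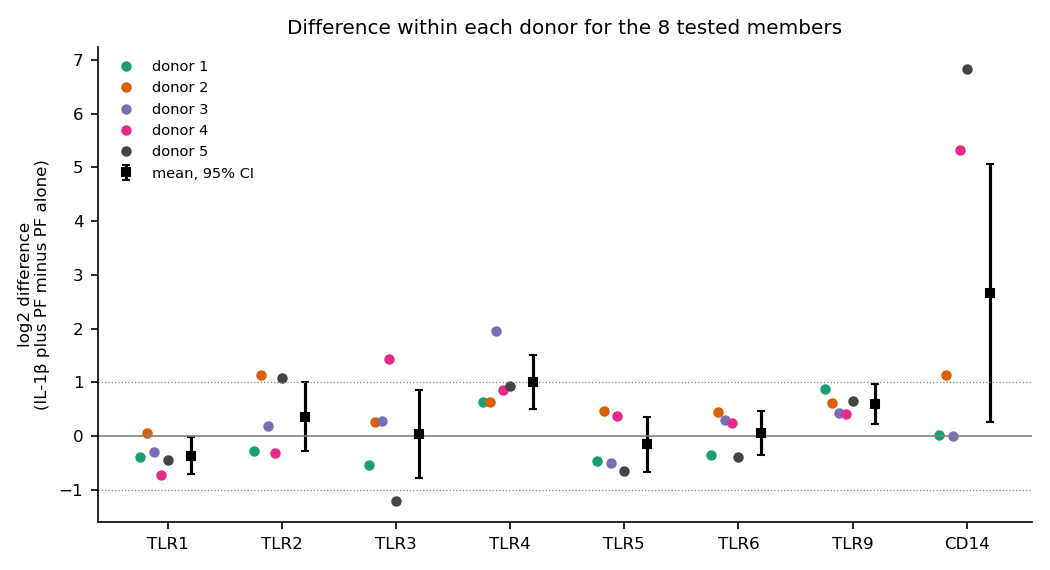
Log2 difference between IL-1β plus PF-06650833 (IL-1β plus PF) and PF-06650833 alone within each donor for the 8 tested members, as coloured points, with the mean and its 95% confidence interval from the blocked fit as black squares and bars; dotted lines mark the minimum log2 fold change of 1 in each direction. The 5 points of TLR4 and TLR9 are above 0, those of TLR2, TLR3, TLR5 and TLR6 lie on both sides, and CD14 spreads from 0 to 6.84.

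For every tested member apart from TLR9, the part of the variation between donors was above the median of all tested genes. The sum of squares of the log2 values was split into parts between donors, between groups and the rest. The part between donors was 90.2% for TLR5, 84.0% for TLR4, 82.1% for TLR1, 68.0% for TLR6, 65.1% for TLR3, 61.9% for CD14 and 60.1% for TLR2, against a median of 45.8% over all tested genes. TLR9 was below that median with 41.3%. The part between groups was 54.0% for TLR9, 17.7% for CD14, 13.0% for TLR4 and 12.1% for TLR1, and at most 9.63% for TLR2, TLR3, TLR5 and TLR6, against a median of 19.1% over all tested genes. Donor 4 had the highest TLR4 and TLR5 in both groups, and donor 3 had the lowest TLR1 and TLR6 in both groups. The share of TLR5 rests on donor 4, as the other donors were at or near the lowest value. A part between 5 donors exceeds a part between groups even where neither has an effect, so the medians are given for comparison. These shares are descriptions of 5 donors and carry no test.

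**Figure D4:**
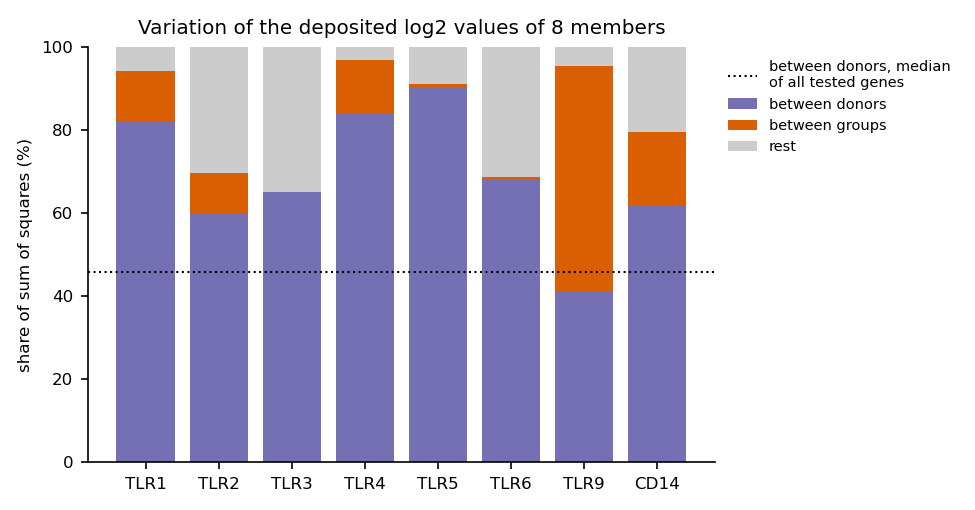
Share of the sum of squares of the deposited log2 values, in percent, that lies between the 5 donors, between the groups and in the rest, stacked for each of the 8 tested members; the dotted line is the median share between donors over all tested genes (45.8%). The part between donors exceeds that line for every tested member apart from TLR9, in which the part between groups is 54.0%.

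Downstream of the receptors, the adaptor and kinase genes went in both directions. For comparison with this and the following lists, 6.68% of all tested genes were differentially expressed, and 8.26% with the replicate block. Of 15 adaptors and Myddosome genes, the Myddosome being the complex of MyD88 with the IRAK kinases, 3 were differentially expressed and all 3 were higher. The median log2 fold change of the 15 was -0.00404. TICAM1, which encodes TRIF, rose from 8.58, 8.93, 9.12, 8.74 and 8.65 in donors 1 to 5 to 9.90, 10.12, 9.89, 9.99 and 10.30. The groups did not overlap, and the log2 fold change was 1.24 (standard error 0.13, adjusted p = 3.08e-04 from limma). IRAK2, a kinase-like partner of IRAK-4, rose by 1.86 (adjusted p = 0.00218 from limma), and IRAK3, an inhibitor of the Myddosome, by 1.04 (adjusted p = 0.0117). MYD88 was at 11.51 ± 0.13 (SD, n = 5) and 11.29 ± 0.11 (SD, n = 5), lower in all 5 donors and not differentially expressed (log2 fold change -0.22, adjusted p = 0.131). IRAK4, the gene of the inhibited kinase, had a log2 fold change of 0.11 with a 95% confidence interval from -0.14 to 0.35 (adjusted p = 0.571 from limma). MAP3K7, the kinase TAK1 that acts after TRAF6, was lower by 0.67 in the log2 means (adjusted p = 0.00215), with groups that did not overlap and under the minimum fold change. IRAK1 was also lower in 5 of 5 donors without overlap (log2 fold change -0.33, adjusted p = 0.0653 from limma and 0.0433 with the replicate block). TICAM2 was lower in 5 of 5 donors with overlap (log2 fold change -0.28, adjusted p = 0.0979). In the other direction, TRAF3 was higher in 5 of 5 donors with overlap and under the minimum fold change (log2 fold change 0.48, adjusted p = 0.0212 from limma).

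The list of 9 co-receptors and chaperones also held the receptor gene TLR10, which was 1 of its 5 tested genes. LBP, CD36 and LY86 were listed at 0 in all libraries. Of the 5 tested genes 0 were differentially expressed, with 0 at an adjusted p below 0.05 and a median log2 fold change of 0.46. With the replicate block 0 passed both thresholds, while 4 of the 5, LY96 and CNPY3 among them, were at an adjusted p below 0.05, beside 22.2% of all tested genes. UNC93B1, which carries the nucleic acid receptors to endosomes, was at an adjusted p of 0.0130 (log2 fold change 0.52, higher in 5 of 5 donors). HSP90B1, a chaperone needed for the folding of most Toll-like receptors, was at 0.0474 (log2 fold change 0.46). Of 8 negative regulators, 2 were differentially expressed, both higher. NFKBIA, the inhibitor of NFκB, rose by 1.64 (adjusted p = 1.07e-04 from limma) and TNFAIP3, the deubiquitinase A20, by 2.42 (adjusted p = 0.00129). SIGIRR, an inhibitory receptor of the same family, was not differentially expressed (log2 fold change -0.51, adjusted p = 0.307).

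In the arm that TRIF feeds, 2 of 7 tested genes were differentially expressed, both higher, and 3 with the replicate block, with a median log2 fold change of 0.45. IKBKE, a kinase that activates interferon regulatory factors, rose by 1.31 (adjusted p = 1.90e-04 from limma) and IRF1 by 1.74 (adjusted p = 0.0189). IRF7 was added with the block (log2 fold change 1.55, adjusted p = 0.0205 from limma with the block and 0.0520 without it). IFNB1, the gene of interferon β, was listed at 0 in all 10 libraries. Cytosolic RNA sensors detect viral RNA as TLR3 does but outside endosomes. Of 6 genes listed under that name, the adaptor gene MAVS among them, DDX58 was differentially expressed, and DHX58 also with the block. DDX58 rose from between 9.90 and 10.56 to between 11.01 and 12.51 (log2 fold change 1.53, adjusted p = 0.00382 from limma).

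Among 10 tested genes whose products can act on TLR2 or TLR4, 4 were differentially expressed, 2 higher and 2 lower, with a median log2 fold change of 0.16. SAA1, an acute-phase protein, rose by 4.18 (standard error 0.98, adjusted p = 0.0154 from limma) and S100A12, a calcium-binding protein of inflamed tissue, by 3.10 (standard error 0.39, adjusted p = 6.91e-04). The matrix glycoprotein genes TNC and FN1 had log2 fold changes of -2.04 and -1.41 (adjusted p = 0.0135 and 0.0369 from limma). The small proteoglycan genes DCN (1.01, adjusted p = 0.268) and BGN (-0.68, adjusted p = 0.104) were not differentially expressed.

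**Figure D5:**
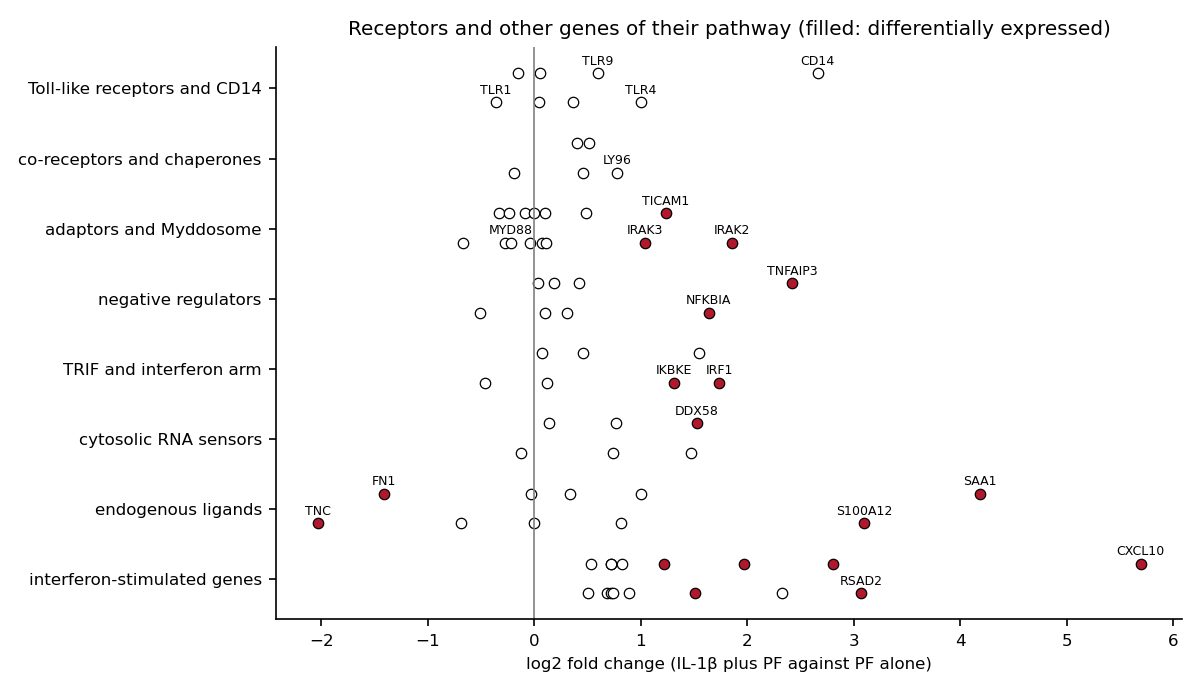
Log2 fold change of IL-1β plus PF-06650833 (IL-1β plus PF) against PF-06650833 alone (PF alone) for the 8 tested members and for the tested genes of 7 related lists, 1 point per gene, filled where the gene was differentially expressed in limma. No point of the Toll-like receptors and CD14 is filled, and filled points lie to the right of 0 in the other lists apart from TNC and FN1 and from the co-receptors and chaperones, which have none.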

How the data were processed

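RNA of 10 libraries, 5 per group, was sequenced. The authors assigned reads to the EquCab3.0 transcriptome with Salmon 1.8, with GC-bias correction, imported them with tximport and used DESeq2 1.36. They deposited log2 values for 29196 genes. The transformation is not named in the sources used here, and it was recognised as variance stabilization from the values, whose lowest, 3.43, is shared by all libraries. The values share their lowest value with further libraries of the study, which were not analysed here.

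Normalized counts were recovered by inverting the transformation from its value at 0 reads, and the value of 1 read came from the spacing of low values. Between 62.4% and 82.5% of low values lay within 0.15 of a whole read. Counts of reads are therefore approximate. Levels of different genes were compared only for the cell type markers and in choosing TLR1 by its mean value. Genes that exceeded the lowest value in 5 or more libraries went into limma (version 3.58.1, R 4.3.3) with a mean-variance trend and no donor term, as the study names none, and with the donor, shown by the replicate number, as a block. Adjusted p-values are Benjamini-Hochberg over 17992 genes. The fit was checked on simulated data.

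Titles place the same 5 lines in both groups. Deviations from group means correlated at 0.37 to 0.51 between libraries of 1 donor and at -0.27 to 0.09 between donors, so the numbers pair the libraries. Groups came from the labels. The members, lists and rule for named genes (the members, up to 6 differentially expressed genes per list by smallest adjusted p, MYD88, IRAK4, TICAM1 and LY96, and the 5 genes most like CD14, which had the largest absolute log2 fold change, and TLR1, which had the highest mean deposited value) were chosen with earlier results of these data known. UNC93B1, HSP90B1, IRAK1, TICAM2, TRAF3, MAP3K7, SIGIRR, CNPY3, TLR10, DCN, BGN, IRF7, DHX58 and the neighbours of CD14 and TLR9 were named after their values were seen. All 10 members matched the RefSeq table of a horse assembly other than EquCab3.0, used for gene order only. Protein and promoter sequences were not used here.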

Additional observations from a re-analysis of the deposited data

Results flagged for a closer look

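In 3 of 24 groups of 5 libraries of the members, LY96 and TLR10, 1 library lay far from the other 4. Chance would give about 1.2 for values without ties. All 3 cases involve the lowest value, at which libraries are tied, so that figure does not apply to them. TLR5 was at 5.78 in donor 4 under IL-1β plus PF-06650833, against at most 3.91 in the others, and that donor was also the highest under PF-06650833 alone. TLR7 was at 4.30 in donor 4 under PF-06650833 alone, about 4.00 normalized counts, with the others listed at 0. CD14 was listed at 3.43, the value of 0 reads, in donor 3 under IL-1β plus PF-06650833, against 8.75 to 10.73 in the other 4. The cause was not tested for any of them.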

How the results depend on the processing

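TLR1, TLR2, TLR4, TLR9 and CD14 kept their direction under every alternative run, but not their size. TLR3 changed sign on the back-transformed scales, to -0.18 with a pseudocount of 0.5 and -0.15 with 1, also with the block. Leaving out single libraries, log2 fold changes ranged from -0.42 to 0.25 for TLR3, from -0.59 to -0.15 for TLR1 (without donor 3 under PF-06650833 alone and under IL-1β plus PF-06650833), from 0.05 to 0.57 for TLR2 (without donors 2 and 1 under IL-1β plus PF-06650833), from 2.05 to 3.94 for CD14, from -0.60 to 0.16 for TLR5, from -0.0892 to 0.14 for TLR6 and from 0.45 to 1.36 for TLR4. TLR3 was below 0 without donor 4 under IL-1β plus PF-06650833 or donor 1 or 3 under PF-06650833 alone, and TLR5 was above 0 only without donor 4 under PF-06650833 alone. TLR6 was below 0 without donor 2 or 4 under IL-1β plus PF-06650833 or donor 3 under PF-06650833 alone. With the replicate block, TLR3 was -0.0081, -0.0122 and -0.31 without donors 2, 3 and 4, TLR6 was -0.0513 and -0.0104 without donors 2 and 3, and CD14 was 1.62 without donor 5. TLR4 was called, as 1 member, without donors 1, 2, 4 and 5 at 1.09, 1.09, 1.04 and 1.02. In these fits 1208, 1177, 1578 and 1251 of all tested genes were called. Chosen after the data were seen, the replicate block with no minimum fold change called 2 members, TLR4 (1.00) and TLR9 (0.60), and with log2(normalized count + 1) also 2 (1.29 and 1.13). No other alternative called a member. Differentially expressed genes numbered 1202 (560 higher, 642 lower), and 2782 (1362 higher, 1420 lower) without a minimum fold change. They numbered 3996 (1969 higher, 2027 lower) with the block and no minimum, and 1809 (891 higher) with the block on log2(normalized count + 1). The cause of these changes was not tested. Variance stabilization compresses differences of low values, which touches TLR2, TLR3, TLR4, TLR5, TLR9 and CD14. CD14 went from 2.66 to 4.43 with a pseudocount of 0.5 and 4.03 with 1, with no call. At under 5 normalized counts, TLR7 and TLR8 allow no statement on a difference.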
